A study of Homo sapiens with 14 samples.

Results

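The 7 genes described here are linked to blood vessels and the cells around them: KDR, FLT1, VEGFA, MMRN1, RGS5, LMO2 and TAL1. They were chosen by name from a table of 26485 genes, on values of these same libraries, so their own levels and differences are given as a description, with no test. All 7 were among the 16149 genes with enough counts to be tested. RNA was sequenced from the human embryonic stem cell line WA01 (also called H1) and from neural crest cultures induced from it, in 7 groups of 2 libraries, and all groups come from this 1 line.

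The 6 induced groups were collected at day 5. Each received CHIR99021 from hour 0 to hour 72. This small molecule inhibits GSK3 and thereby switches on canonical Wnt signalling. The high Wnt + TGFB group received 10 µM CHIR99021 and recombinant human TGF-beta 1, labelled as 5 ng/µL, and the high Wnt + SB4 group received 10 µM CHIR99021 and 10 µM SB431542. SB431542 is a kinase inhibitor of the receptors through which TGF-beta, activin and nodal activate SMAD proteins. The high Wnt group received 10 µM CHIR99021 alone. The low Wnt + TGFB, low Wnt + SB4 and low Wnt groups received 3 µM CHIR99021 with the same additives or none. Additives were present from hour 0 to hour 120. The hESC group was not induced. Levels are in counts-per-million (CPM) with TMM-scaled library totals, and differences are log2 fold changes with their standard errors (SE) from 1 edgeR fit of all 14 libraries.

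Vascular endothelial growth factor A, encoded by VEGFA, is a secreted ligand that drives the growth of blood vessels. Endothelial cells sense it through KDR (VEGF receptor 2), the main signalling receptor, and through FLT1 (VEGF receptor 1), which binds the ligand tightly, signals weakly and also binds the related ligands PGF and VEGFB. RGS5 marks many pericytes, the contractile cells around small vessels, some of which arise from neural crest in the head. TAL1 and LMO2 act in 1 transcription factor complex in blood and endothelial precursors, and MMRN1 encodes a large adhesive protein of platelets and endothelium.

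Library totals ran from 10879287 to 19106827 counts. In each group the replicates were farther apart than sampling noise allows (5.26 to 14.1 chi-square units per degree of freedom over genes), and their log2 CPM values correlated at 0.988 to 0.992 across genes, which are not independent replicates. The labels do not say whether replicates came from separate cultures, so errors and p-values cover only the spread between these libraries. Of 10 neural crest markers, 4 rose and 3 fell in high Wnt against hESC, and 7 rose and 2 fell in low Wnt against hESC. Over all tested genes, 72.4% and 71.4% passed an adjusted p under 0.05 in these comparisons. SNAI2 averaged 17.8 to 66.6 CPM in the induced groups and 0.868 CPM in hESC, and PAX3 173 to 253 CPM in the 3 high Wnt groups, 7.61 to 17 CPM in the 3 low Wnt groups and 0.0848 CPM in hESC. The defining gene SOX10 averaged 0.587 to 6.34 CPM in the induced groups and 5.63 CPM in hESC. TFAP2A, which also defines neural crest, averaged 0.0755 to 0.139 CPM in the 3 high Wnt groups, 15.5 CPM in low Wnt + TGFB, 3.16 CPM in low Wnt + SB4, 3.50 CPM in low Wnt and 0.153 CPM in hESC. The cultures are bulk samples, in which fewer cells of a type and less RNA per cell cannot be told apart.

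KDR and FLT1 were both highest in uninduced stem cells, and among the induced groups both were lower with SB4 at either CHIR99021 dose, while only FLT1 was far higher in high Wnt than in low Wnt. KDR had 8.42 and 7.73 CPM in high Wnt + TGFB, 0.762 and 0.780 CPM in high Wnt + SB4, and 2.49 and 2.06 CPM in high Wnt. It had 39.5 and 31.6 CPM in low Wnt + TGFB, 0.366 and 0.472 CPM in low Wnt + SB4, 3.65 and 3.17 CPM in low Wnt, and 188 and 166 CPM in hESC. No 2 neighbouring groups in this order of levels overlapped, from hESC through low Wnt + TGFB, high Wnt + TGFB, low Wnt, high Wnt and high Wnt + SB4 down to low Wnt + SB4. The largest step among induced groups was that between low Wnt + TGFB and high Wnt + TGFB, a ratio of means of 4.40, and the smallest was that between low Wnt and high Wnt.

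For KDR, the log2 fold change was 1.83 ± 0.200 for high Wnt + TGFB against high Wnt and 3.38 ± 0.159 for low Wnt + TGFB against low Wnt. For SB4 it was -1.54 ± 0.291 against high Wnt and -2.99 ± 0.290 against low Wnt. The groups with TGF-beta 1 thus lay above, and those with SB4 below, the group without additive at both doses. KDR was also lower in high Wnt than in low Wnt, by a small amount (log2 fold change -0.59 ± 0.221), and lower in both induced groups without additive than in hESC (-6.28 ± 0.174 for high Wnt and -5.69 ± 0.161 for low Wnt). The difference between doses did not pass the threshold without the gene filter, without the hESC libraries, with only the groups compared or with DESeq2. It was -0.73 without high Wnt replicate 1 and -0.45 without high Wnt replicate 2.

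FLT1 had 65.3 and 62.2 CPM in high Wnt + TGFB, 15.7 and 14.4 CPM in high Wnt + SB4, and 56.0 and 56.5 CPM in high Wnt. It had 39.9 and 36.8 CPM in low Wnt + TGFB, 0.853 and 0.105 CPM in low Wnt + SB4, 3.23 and 2.87 CPM in low Wnt, and 177 and 144 CPM in hESC. Unlike KDR, it was therefore high in high Wnt without any additive, and again no 2 neighbouring groups overlapped. The log2 fold change of high Wnt against low Wnt was 4.20 ± 0.215.

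TGF-beta 1 went with more FLT1 at the low dose, where the log2 fold change was 3.65 ± 0.216, and hardly at the high dose, where it was 0.18 ± 0.162. SB4 went with less at both doses, with log2 fold changes of -1.90 ± 0.176 against high Wnt and -2.73 ± 0.405 against low Wnt. The low Wnt + SB4 libraries rest on 14 and 2 counts, and the value was -4.75 without replicate 1 of that group and -1.83 without replicate 2. Against hESC, FLT1 was lower in high Wnt (-1.51 ± 0.162) and much lower in low Wnt (-5.71 ± 0.215). The plot of levels by library shows both receptors beside the other 5 genes.

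**Figure D1:**
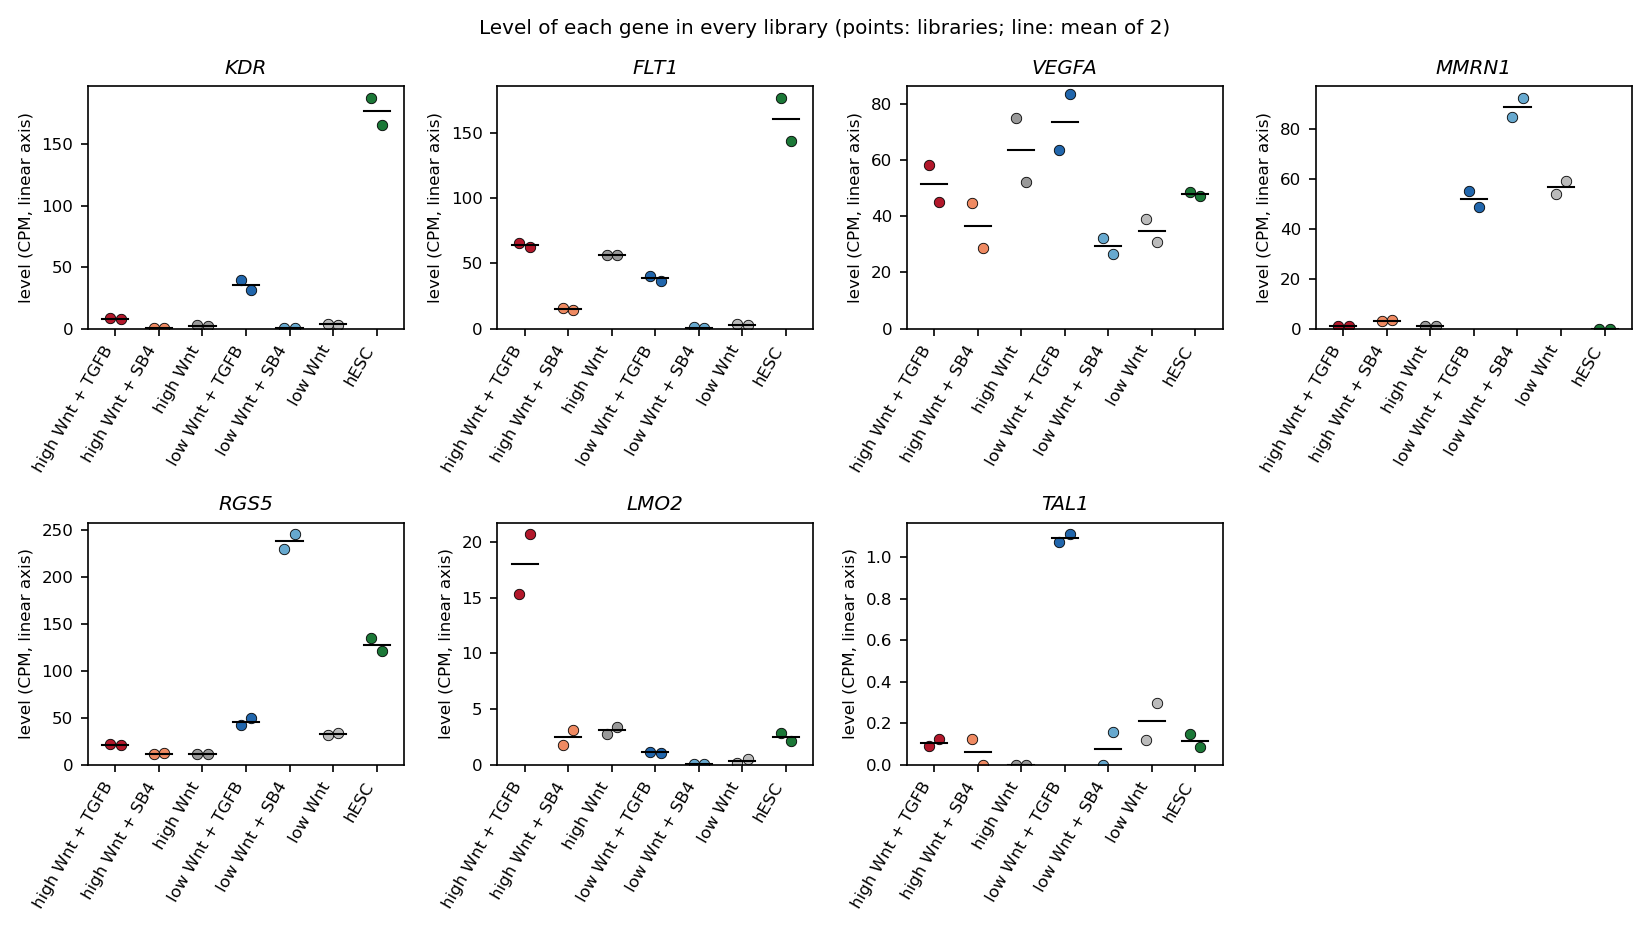
Level of each of the 7 genes (CPM, linear axes from 0) in every library of the 7 groups. Points are libraries and the line is the mean of 2. KDR and FLT1 peak in hESC, MMRN1 is high in the 3 low Wnt groups alone, RGS5 is highest in low Wnt + SB4 (230 and 246 CPM), LMO2 in high Wnt + TGFB and TAL1 in low Wnt + TGFB.

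The balance of the receptors followed the CHIR99021 dose. Per kilobase of exon, the ratio of the KDR level to the FLT1 level was 0.256 and 0.246 in high Wnt + TGFB, 0.0964 and 0.108 in high Wnt + SB4, and 0.0883 and 0.0724 in high Wnt. It was 1.96 and 1.71 in low Wnt + TGFB, 2.25 and 2.19 in low Wnt, and 2.10 and 2.29 in hESC. In low Wnt + SB4 the ratio was 0.850 and 8.93, which the 14 and 2 counts of FLT1 cannot fix. So KDR exceeded FLT1 per length in every library of low Wnt + TGFB, low Wnt and hESC, and FLT1 exceeded KDR in every library of the 3 high Wnt groups. In low Wnt + TGFB this order rests on the exon lengths, which cover all counted exons of a gene and not 1 transcript. In CPM, without division by length, KDR had 39.5 and 31.6 there and FLT1 had 39.9 and 36.8. The counted exons of KDR span 6055 bases within chr4:55078259-55125595 and those of FLT1 12010 bases within chr13:28300346-28495128, both on the minus strand of hg38, and neither shares exons with another gene of the table.

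The 250 bases before the start of KDR and of FLT1 are shown because both receptors were lower with SB4 while only FLT1 differed widely between doses. They were taken from RefSeq (GRCh38.p14) at chr4:55125596-55125845 and chr13:28495129-28495378, minus strand, and are written 5′ to 3′ with capitals for matches on either strand to 5 motifs. These were the E-box, spelled CANNTG, and the HIF core bound by hypoxia-inducible factors, spelled ACGTG. The others were the SMAD box, spelled CAGAC, the core bound by TCF/LEF factors, spelled CTTTGA, and the GATA motif, spelled AGATAA.
KDR: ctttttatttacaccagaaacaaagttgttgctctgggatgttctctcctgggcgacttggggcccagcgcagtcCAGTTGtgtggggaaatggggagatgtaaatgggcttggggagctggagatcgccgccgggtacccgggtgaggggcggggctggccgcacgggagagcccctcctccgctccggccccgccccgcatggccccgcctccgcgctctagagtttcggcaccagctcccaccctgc
FLT1: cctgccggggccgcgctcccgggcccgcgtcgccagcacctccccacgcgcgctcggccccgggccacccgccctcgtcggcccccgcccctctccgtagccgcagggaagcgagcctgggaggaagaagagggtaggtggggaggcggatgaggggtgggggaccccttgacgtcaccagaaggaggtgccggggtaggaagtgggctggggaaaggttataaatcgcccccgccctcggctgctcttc
The KDR window held 1 E-box, and the FLT1 window held none of the 5 motifs in these letters. Of 35116 such windows in the RefSeq set used, 61.8% held an E-box, 18.5% the HIF core, 38.0% a SMAD box, 11.2% the TCF/LEF core and 9.2% the GATA motif. The G and C share was 65.2% for KDR and 73.2% for FLT1, against a median of 58.0% over all windows.

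The ligand gene VEGFA (chr6:43770209-43786486, plus strand, 3778 bases of exon) was expressed in every group and varied least of the 7. It had 58.0 and 44.9 CPM in high Wnt + TGFB, 44.7 and 28.5 CPM in high Wnt + SB4, and 74.9 and 52.1 CPM in high Wnt. It had 63.4 and 83.4 CPM in low Wnt + TGFB, 32.1 and 26.5 CPM in low Wnt + SB4, 39.0 and 30.7 CPM in low Wnt, and 48.5 and 47.3 CPM in hESC. In the order of group means, from low Wnt + TGFB down to low Wnt + SB4, neighbouring groups overlapped at every step except that between hESC and high Wnt + SB4.

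For VEGFA, the log2 fold change of low Wnt + TGFB against low Wnt was 1.08 ± 0.211, and that of high Wnt + TGFB against high Wnt was -0.31 ± 0.210. The SB4 values were -0.80 ± 0.212 against high Wnt and -0.25 ± 0.215 against low Wnt. High Wnt against low Wnt gave 0.86 ± 0.212. The high Wnt libraries themselves differed, and without replicate 1 of that group the value against low Wnt was 0.57 and that of high Wnt + SB4 was -0.51. The SB4 value was also -0.51 without replicate 2 of high Wnt + SB4.

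The other VEGF family genes place these values. PGF, which binds FLT1 but not KDR, averaged 6.35 ± 0.628 CPM in high Wnt + SB4 and 32.1 ± 0.510 CPM in high Wnt (SD, n = 2 each), and fell with SB4 there (log2 fold change -2.33 ± 0.327, edgeR adjusted p = 8.83e-05). PGF averaged 16.7 ± 8.34 CPM in low Wnt + SB4 and 10.3 ± 4.43 CPM in low Wnt, which did not pass the test (edgeR adjusted p = 0.173). It was higher in high Wnt than in low Wnt (1.64 ± 0.312, edgeR adjusted p = 0.000465), in the same direction as FLT1. VEGFB did not pass the test in any comparison among induced groups and VEGFC in none at all.

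Of the remaining receptors, the co-receptor NRP1 averaged 20.6 ± 0.619 CPM in high Wnt, against 3.59 ± 0.516 CPM in low Wnt (log2 fold change 2.52 ± 0.182, edgeR adjusted p = 7.68e-09). It rose with TGF-beta 1 at the low dose (1.17 ± 0.189, edgeR adjusted p = 0.000197), where KDR and FLT1 were higher too, and did not pass the test with SB4 at either dose. NRP2 went the other way: it averaged 481 ± 61.0 CPM in low Wnt + TGFB, 450 ± 37.9 CPM in low Wnt + SB4 and 918 ± 23.1 CPM in low Wnt, and fell with both additives (-0.93 ± 0.112 with edgeR adjusted p = 9.37e-06, and -1.03 ± 0.112 with edgeR adjusted p = 1.18e-05). FLT4, the receptor of lymphatic vessels, passed the test with neither additive at either dose. Per kilobase, NRP2 was the most abundant receptor of the 5 in every induced group, at 45.2 ± 3.73 to 119 ± 2.99 CPM per kb, while KDR led in hESC at 29.2 ± 2.53 CPM per kb.

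**Figure D2:**
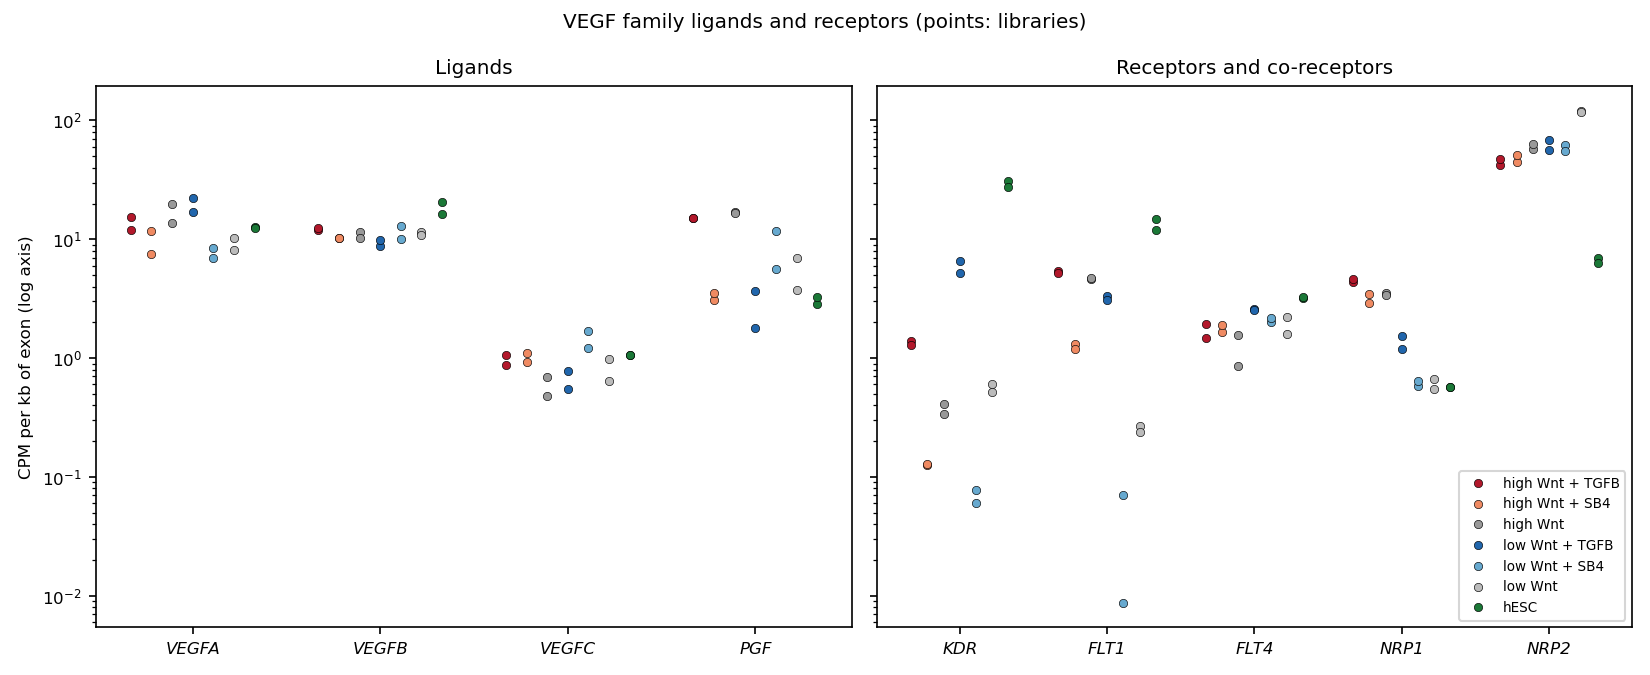
Level per kilobase of exon (CPM per kb, log axis) of VEGF family ligands and receptors in every library, coloured by group. The ligands VEGFA and VEGFB stay within a narrow band, whereas KDR spans 0.0691 CPM per kb in low Wnt + SB4 to 29.2 CPM per kb in hESC (group means).

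MMRN1 (chr4:89894901-89954629, plus strand, 4969 bases of exon) separated the CHIR99021 doses more than any other of the 7. It had 0.985 and 1.04 CPM in high Wnt + TGFB, 2.92 and 3.23 CPM in high Wnt + SB4, and 0.914 and 0.894 CPM in high Wnt. It had 55.2 and 48.5 CPM in low Wnt + TGFB, 84.6 and 92.5 CPM in low Wnt + SB4, and 54.0 and 59.1 CPM in low Wnt, and 0 counts in both hESC libraries. The low Wnt and low Wnt + TGFB libraries overlapped, and all other neighbouring groups were apart. High Wnt against low Wnt gave a log2 fold change of -5.96 ± 0.185.

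Against hESC, where a count of 0 was set to 3 counts over the group, MMRN1 was at least 7.62-fold higher in high Wnt and at least 477-fold higher in low Wnt. These bounds cover counting error only. SB4 went with more MMRN1 at both doses, with log2 fold changes of 1.76 ± 0.248 against high Wnt and 0.65 ± 0.113 against low Wnt. With TGF-beta 1 the values were 0.17 ± 0.319 against high Wnt and -0.13 ± 0.114 against low Wnt. The SB4 values were thus positive at both doses, and the TGF-beta 1 values differed in sign between doses.

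The window before a RefSeq start that lies 47 bases ahead of the first counted exon of MMRN1 is shown because this gene had the widest difference between doses (RefSeq, GRCh38.p14, chr4:89894604-89894853, plus strand, capitals as for the receptors).
MMRN1: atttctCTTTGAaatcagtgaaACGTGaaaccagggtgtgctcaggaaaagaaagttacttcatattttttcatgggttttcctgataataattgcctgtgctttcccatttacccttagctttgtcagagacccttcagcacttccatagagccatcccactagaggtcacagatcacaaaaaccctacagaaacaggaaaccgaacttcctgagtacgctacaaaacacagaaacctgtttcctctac
It held 1 TCF/LEF core and 1 HIF core, with a G and C share of 41.6%. RefSeq lists another MMRN1 start 15390 bases ahead of the first counted exon, whose window (chr4:89879261-89879510, plus strand) held 1 HIF core and 1 SMAD box and no TCF/LEF core. Which start was used in these cells was not tested. A match of letters is a description and was not tested for binding.

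Of the 4 genes related to MMRN1 by structure, 2 rose and none fell in high Wnt against low Wnt. EMILIN1, an elastic fibre protein, had 25.3 ± 0.135 CPM in high Wnt, against 6.45 ± 0.428 CPM in low Wnt (log2 fold change 1.97 ± 0.148, edgeR adjusted p = 1.26e-08), which is the opposite direction to MMRN1. MMRN2, an endothelial matrix protein, was the other one (1.81 ± 0.537, edgeR adjusted p = 0.0133) and averaged under 2 CPM in every group. EMILIN2 fell with SB4 at both doses (-1.21 ± 0.224 with edgeR adjusted p = 0.00103 at the high dose and -1.22 ± 0.216 with edgeR adjusted p = 0.00129 at the low dose), and EMILIN3 rose with it at the high dose (1.05 ± 0.224, edgeR adjusted p = 0.00308).

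RGS5 (chr1:163142299-163321791, minus strand, 7424 bases of exon), which speeds the switching off of G protein signals, had its highest level in low Wnt + SB4. It had 21.9 and 21.6 CPM in high Wnt + TGFB, 11.7 and 12.8 CPM in high Wnt + SB4, and 12 and 11.8 CPM in high Wnt. It had 42.1 and 50.0 CPM in low Wnt + TGFB, 230 and 246 CPM in low Wnt + SB4, 31.5 and 34.4 CPM in low Wnt, and 135 and 121 CPM in hESC. Only the high Wnt + SB4 and high Wnt libraries overlapped among neighbours, and low Wnt + SB4 was the 1 induced group above hESC.

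For RGS5, the log2 fold change of SB4 was 2.85 ± 0.112 against low Wnt and 0.04 ± 0.133 against high Wnt. Those of TGF-beta 1 were 0.49 ± 0.110 against low Wnt and 0.87 ± 0.129 against high Wnt. The value in low Wnt + TGFB was 0.35 without replicate 2 of that group. High Wnt was lower than low Wnt (-1.47 ± 0.124), and both were lower than hESC (-3.43 ± 0.123 for high Wnt and -1.96 ± 0.110 for low Wnt).

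Other pericyte and mural cell markers moved in both directions where RGS5 was highest. In low Wnt + SB4 against low Wnt, 3 of the 13 tested markers other than RGS5 rose, 4 fell and 6 did not pass the test, with a median log2 fold change of -0.09. PDGFRB, the receptor that recruits pericytes, fell to 109 ± 11.9 CPM in low Wnt + SB4, against 238 ± 15.8 CPM in low Wnt (-1.12 ± 0.101, edgeR adjusted p = 1.59e-06). TAGLN, an actin-binding gene of smooth muscle, rose to 271 ± 23.1 CPM in low Wnt + SB4, against 163 ± 21.1 CPM in low Wnt (0.74 ± 0.167, edgeR adjusted p = 0.00814). The list without RGS5 summed to 774 to 783 CPM in low Wnt + SB4 and 799 to 864 CPM in low Wnt. The pericyte gene HIGD1B had no counts in low Wnt + SB4, low Wnt, low Wnt + TGFB and hESC alike, and at most 5 counts in any group.

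At the high dose many markers fell with SB4, where the RGS5 value was 0.04. In high Wnt + SB4 against high Wnt, 8 of the 13 markers fell and none rose, including the proteoglycan gene CSPG4 (-2.48 ± 0.153, edgeR adjusted p = 1.33e-08) and TAGLN, which fell to 100 ± 21.0 CPM in high Wnt + SB4, against 826 ± 69.8 CPM in high Wnt (-3.04 ± 0.179, edgeR adjusted p = 8.31e-09). In high Wnt against low Wnt, 9 rose and 3 fell, while RGS5 was lower in high Wnt. The R4 family of RGS genes, to which RGS5 belongs, held 5 other tested members. In low Wnt + SB4 against low Wnt 2 of them fell and none rose: RGS16 had 35.2 ± 1.80 CPM in low Wnt + SB4 and 46.7 ± 2.08 CPM in low Wnt (-0.41 ± 0.128, edgeR adjusted p = 0.0482), and RGS3 had 21.1 ± 1.21 CPM in low Wnt + SB4 and 27.9 ± 1.98 CPM in low Wnt (-0.40 ± 0.125, edgeR adjusted p = 0.0466).

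LMO2 (chr11:33858576-33892289, minus strand, 2417 bases of exon), which bridges DNA-binding proteins without binding DNA itself, was highest in high Wnt + TGFB. It had 15.3 and 20.7 CPM in high Wnt + TGFB, 1.84 and 3.18 CPM in high Wnt + SB4, and 2.82 and 3.44 CPM in high Wnt. It had 1.21 and 1.11 CPM in low Wnt + TGFB, 0.0609 and 0.105 CPM in low Wnt + SB4, 0.183 and 0.538 CPM in low Wnt, and 2.89 and 2.12 CPM in hESC. The high Wnt, high Wnt + SB4 and hESC groups overlapped, and every library of high Wnt + TGFB lay above all others.

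For LMO2, TGF-beta 1 gave log2 fold changes of 2.52 ± 0.303 against high Wnt and 1.66 ± 0.495 against low Wnt, and high Wnt against low Wnt gave 3.09 ± 0.438. The low Wnt group held 12 counts in all, which limits the values against it: without its replicate 1 the fold change of low Wnt + TGFB was 1.09 and that of high Wnt 2.53, and without its replicate 2 they were 2.61 and 4.05. Only 3 counts were found in low Wnt + SB4, a level 4.28-fold lower than in low Wnt, with an exact 95% interval of 1.16 to 23.7. This interval covers counting error only and not the spread between libraries, and the low Wnt libraries held 3 and 9 counts. In the edgeR fit the log2 fold change was -2 ± 0.797 and did not pass the threshold. The SB4 value at the high dose was -0.31 ± 0.329.

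TAL1 (chr1:47216290-47232335, minus strand, 5103 bases of exon), the basic helix-loop-helix partner of LMO2, had 52 counts over all 14 libraries. Its counts were 1 and 2 in high Wnt + TGFB, 2 and 0 in high Wnt + SB4, 0 and 0 in high Wnt, 15 and 19 in low Wnt + TGFB, 0 and 3 in low Wnt + SB4, 2 and 5 in low Wnt, and 2 and 1 in hESC. It entered the test through low Wnt + TGFB, the 1 group in which it is high. The level there was 1.07 and 1.11 CPM, and the log2 fold change against low Wnt was 2.33 ± 0.708. It ranged from 1.84 without low Wnt replicate 1 to 3.08 without low Wnt replicate 2. TAL1 was 2.50-fold lower in low Wnt + SB4 than in low Wnt, with an exact 95% interval of 0.570 to 15 that spans equality.

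In high Wnt + TGFB, where LMO2 was highest, other lists were high as well. The pericyte list summed to 2024 to 2062 CPM in high Wnt + TGFB and 1533 to 1655 CPM in high Wnt, with 5 of 13 markers rising and 1 falling. The largest part of it was TAGLN, at 1039 ± 58.8 CPM in high Wnt + TGFB and 826 ± 69.8 CPM in high Wnt. TAGLN did not pass the test (0.33 ± 0.164, edgeR adjusted p = 0.270). The lateral and cardiac mesoderm list summed to 398 to 414 CPM in high Wnt + TGFB and 227 to 247 CPM in high Wnt. PDGFRA alone made up nearly all of the mesoderm sum, at 397 ± 12.6 CPM in high Wnt + TGFB and 233 ± 13.7 CPM in high Wnt. It rose (0.77 ± 0.103, edgeR adjusted p = 0.000143). Of the 12 genes on that list, 9 averaged under 1 CPM in high Wnt + TGFB. The part of these markers in the LMO2 level was not tested.

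TAL1 and LMO2 had their highest levels in different groups. The list of partners of their complex held 8 tested genes, among them LMO1 and LMO4, which are relatives of LMO2. Of the 8, 3 fell and none rose in low Wnt + SB4 against low Wnt, and 2 rose and 3 fell in low Wnt + TGFB. LMO1 was among those that fell with SB4 (-2.72 ± 0.407) and among those that rose with TGF-beta 1 (2.10 ± 0.290). The E protein gene TCF4 had 168 ± 7.26 CPM in low Wnt + TGFB and 329 ± 16.7 CPM in low Wnt and fell (-0.97 ± 0.110, edgeR adjusted p = 5.12e-06). GATA3 rose there (1.70 ± 0.414, edgeR adjusted p = 0.0065), though its libraries in low Wnt + TGFB differed, at 5.97 and 13.7 CPM from the lower to the higher. GATA1, the red cell factor of this complex, had no counts in any group.

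Across the 7 genes the comparisons are shown together in the plot of log2 fold changes. The counts of the 7 that passed the threshold of an adjusted p under 0.05 are given beside the share of all tested genes that passed, and nothing is read from them, since these contrasts chose the genes. With additives, 3 were higher and 0 lower in high Wnt + TGFB (7.25% of all genes called), 1 higher and 3 lower in high Wnt + SB4 (21.5%), 6 higher and 0 lower in low Wnt + TGFB (26.0%), and 2 higher and 2 lower in low Wnt + SB4 (11.2%). High Wnt against low Wnt gave 3 higher and 3 lower (38.5%), high Wnt against hESC 1 higher and 3 lower (72.4%), and low Wnt against hESC 1 higher and 4 lower (71.4%). The 3 lower in high Wnt against low Wnt include KDR, which did not pass in the alternative runs named above. The count of 6 in low Wnt + TGFB was 3 without low Wnt replicate 1 and also 3 without low Wnt + TGFB replicate 2. The 6 higher in low Wnt + TGFB include TAL1, which entered the test only through that group. Comparisons with the same untreated group share its 2 libraries.

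**Figure D3:**
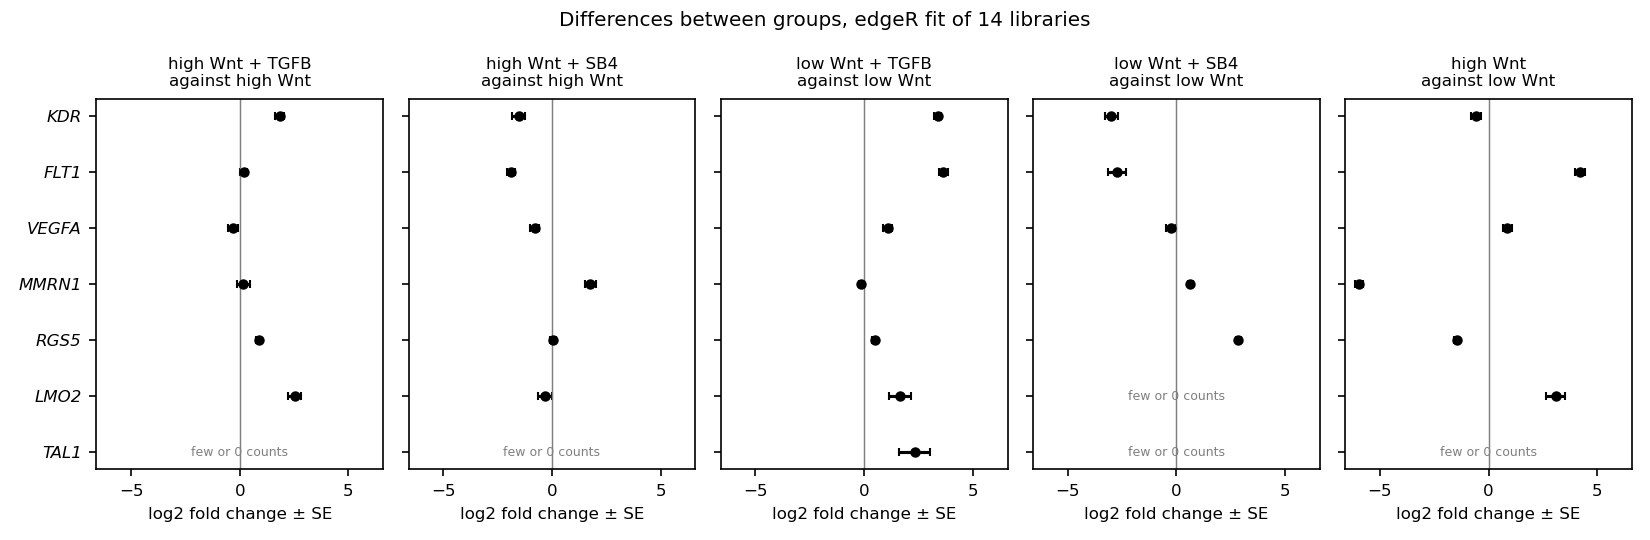
Log2 fold change with SE of each gene in 5 comparisons, from the edgeR fit of 14 libraries. Values right of 0 are higher in the group named first. Pairs with few or 0 counts are marked and not plotted. KDR lies right of 0 in both TGFB panels and left of 0 in both SB4 panels, and RGS5 stands at 2.85 in low Wnt + SB4 and at 0.04 in high Wnt + SB4.

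The additives' effects also differed between doses by amounts that were estimated in the same fit, as the effect in high Wnt minus that in low Wnt. For TGF-beta 1 the difference on the log2 scale was -1.55 ± 0.272 for KDR, -3.47 ± 0.273 for FLT1 and -1.38 ± 0.297 for VEGFA. For MMRN1 it was 0.30 ± 0.340, for RGS5 0.38 ± 0.169 and for LMO2 0.86 ± 0.629, which was -0.09 without low Wnt replicate 2. These values are a description, since the genes were chosen on these data.

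For SB4 the difference between doses was -2.81 ± 0.172 for RGS5, 1.45 ± 0.450 for KDR, 1.11 ± 0.279 for MMRN1, 0.82 ± 0.473 for FLT1 and -0.54 ± 0.302 for VEGFA. Of the 7, 3 passed the threshold for the difference with TGF-beta 1 (11.8% of all genes called) and 2 for that with SB4 (6.07%). The count of 2 was 1 when any of high Wnt replicates 1 and 2, high Wnt + SB4 replicates 1 and 2 or low Wnt replicate 2 was left out, and the FLT1 value was 2.85 without low Wnt + SB4 replicate 1.

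The levels of endothelial markers were read beside the 7 genes. The label of the cultures is neural crest, and the endothelial list was detected in part: 14 of its 20 genes were tested. Without the 7 genes, its summed level was 53.1 to 63.1 CPM in high Wnt + TGFB, 59.0 to 67.1 CPM in high Wnt + SB4, 58.2 to 60.2 CPM in high Wnt, 227 to 236 CPM in low Wnt + TGFB, 136 to 138 CPM in low Wnt + SB4, 197 to 202 CPM in low Wnt and 165 to 180 CPM in hESC. TEK, the angiopoietin receptor, made up most of it in the low Wnt groups, at 147 ± 12.7 CPM in low Wnt + TGFB, 112 ± 0.589 CPM in low Wnt + SB4 and 170 ± 4.53 CPM in low Wnt. The defining junction genes were near 0: CDH5 had 2 to 23 counts a group and PECAM1 averaged under 1 CPM in every group. EMCN, another endothelial marker, had no counts.

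In low Wnt + TGFB against low Wnt, where KDR and FLT1 were 3.38 and 3.65 higher on the log2 scale, 6 of the 14 endothelial markers rose, none fell and 8 did not pass the test. VWF, the clotting factor of endothelium, rose to 20.3 ± 4.25 CPM in low Wnt + TGFB, against 2.08 ± 0.240 CPM in low Wnt (3.28 ± 0.235, edgeR adjusted p = 3.07e-08). SOX17, a factor of both arterial endothelium and endoderm, rose to 23.5 ± 12.6 CPM in low Wnt + TGFB, against 0.360 ± 0.251 CPM in low Wnt (6.00 ± 0.519, edgeR adjusted p = 7.47e-07). In high Wnt + TGFB against high Wnt, where FLT1 stood at 0.18, no endothelial marker rose and 1, VWF, fell (-1.02 ± 0.240, edgeR adjusted p = 0.0144). In SB4 cultures 3 markers fell at the low dose and 2 at the high dose, and none rose at either.

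Markers of other cells moved in the same comparison. In low Wnt + TGFB against low Wnt, 5 of 6 embryonic stem cell markers rose and 1 fell, and the stem cell list summed to 2613 to 2900 CPM in low Wnt + TGFB and 1872 to 1963 CPM in low Wnt. POU5F1 had 41.9 ± 4.20 CPM in low Wnt + TGFB, 3.16 ± 1.71 CPM in low Wnt and 197 ± 47.5 CPM in hESC (3.72 ± 0.282 for low Wnt + TGFB against low Wnt, edgeR adjusted p = 5.29e-08). Of 6 tested lateral and cardiac mesoderm markers 5 rose and none fell. GATA4 averaged 13.5 ± 7.91 CPM in low Wnt + TGFB and rose (5.60 ± 0.519, edgeR adjusted p = 5.41e-07). GATA6 averaged 10.2 ± 5.46 CPM there and rose (4.68 ± 0.577, edgeR adjusted p = 1.29e-05). The list holds 12 genes, of which 6 were not tested and averaged under 1 CPM in low Wnt + TGFB. In low Wnt + TGFB and low Wnt, TBX5 had 1 and 17 counts and NKX2-5 had 4 and 9. MESP1 had 13 and 9 counts, HAND1 had 10 and 2, and HAND2 and FOXF1 had none in either group. The whole list summed to 34.4 to 55.0 CPM in low Wnt + TGFB and 12.8 to 15.8 CPM in low Wnt. No list of endoderm markers was read, and SOX17, named above as a factor of endoderm too, rose in this comparison. Whether the rise of GATA4 and GATA6 belongs to mesoderm or to another cell type was not tested. The part of these stem cell and mesoderm list markers in the KDR, FLT1 and TAL1 levels of low Wnt + TGFB was not tested.

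The 6 stem cell markers did not share 1 pattern in the other groups. In high Wnt, beside 56.3 ± 0.366 CPM of FLT1, NANOG had no counts and POU5F1 and TDGF1 averaged 0.117 ± 0.0689 and 0.269 ± 0.0891 CPM, whereas SOX2, LIN28A and DPPA4, of which SOX2 also marks neural progenitors, averaged 320 ± 41.6, 636 ± 102 and 134 ± 10.9 CPM. The whole list summed to 997 to 1184 CPM in high Wnt and 4567 to 4587 CPM in hESC. In high Wnt + TGFB, where LMO2 was highest, the list summed to 635 to 643 CPM.

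Where RGS5 was highest, in low Wnt + SB4, NANOG, POU5F1 and TDGF1 averaged 0.0305 ± 0.0431, 0.545 ± 0.340 and 0.344 ± 0.116 CPM. SOX2 averaged 513 ± 34.2 CPM in low Wnt + SB4 and 380 ± 4.76 CPM in hESC, and LIN28A 930 ± 96.1 CPM in low Wnt + SB4 and 2019 ± 32.1 CPM in hESC. The list summed to 1511 to 1703 CPM in low Wnt + SB4 and 1872 to 1963 CPM in low Wnt. The part of these markers in the FLT1, LMO2 and RGS5 levels was not tested.

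Blood markers were sparse. Of 16 genes 3 were tested, the list summed to 12.7 to 34.6 CPM over all libraries, mostly from ITGA2B, and HBG1 and SELP had no counts. The leukocyte gene PTPRC had at most 13 counts in a group, in low Wnt + TGFB. Of 7 tested transcription factors of blood and its precursors other than TAL1 and LMO2, 3 rose and 1 fell in low Wnt + TGFB, and 1 rose and none fell in high Wnt + TGFB. The platelet integrin gene ITGA2B was present throughout: where MMRN1 was highest it averaged 14.7 ± 3.83 CPM in low Wnt + SB4, against 20.6 ± 2.31 CPM in low Wnt, which did not pass the test (-0.50 ± 0.173, edgeR adjusted p = 0.0801).

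**Figure D4:**
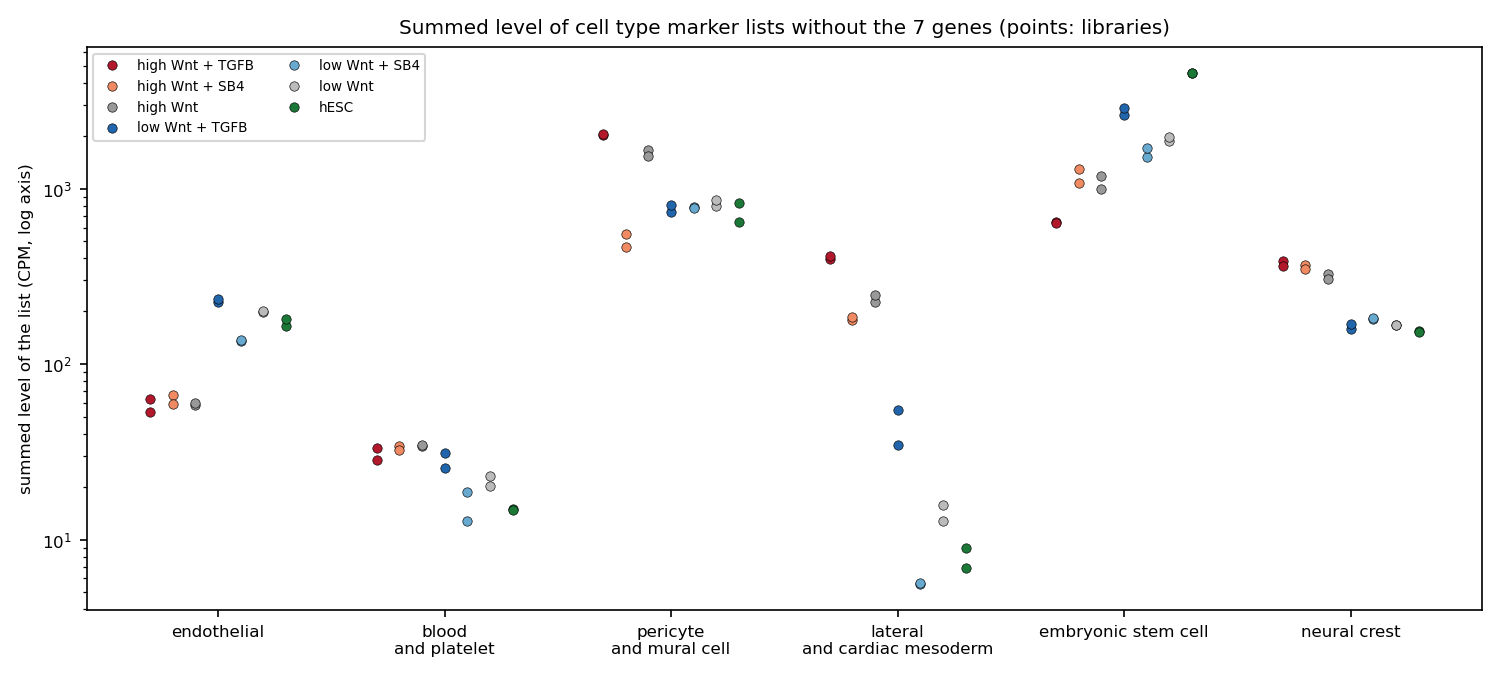
Summed level (CPM, log axis) of 6 marker lists, without the 7 genes, in every library. The endothelial sum is lower in the 3 high Wnt groups (53.1 to 67.1 CPM) than in all others (136 to 236 CPM), while the pericyte sum is highest in high Wnt + TGFB (2024 to 2062 CPM). TAGLN alone averaged 1039 CPM of the pericyte sum there.

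Other genes that low oxygen is known to induce, as it does VEGFA, moved in both directions. Of 14 tested, 2 rose and 5 fell in low Wnt + TGFB against low Wnt, where the VEGFA value was 1.08. The peptide hormone gene ADM rose there, with 45.5 ± 17.5 CPM in low Wnt + TGFB and 5.12 ± 1.04 CPM in low Wnt (3.15 ± 0.236, edgeR adjusted p = 4.6e-08), and the glucose transporter gene SLC2A1 fell (-1.12 ± 0.140, edgeR adjusted p = 1.42e-05). In high Wnt + SB4 against high Wnt, where the VEGFA value was -0.80, 1 rose and 3 fell: ADM fell (-1.80 ± 0.268, edgeR adjusted p = 0.000161) and SLC2A1 rose (0.69 ± 0.140, edgeR adjusted p = 0.00215).

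Over the 136 listed genes other than the 7, 96 were tested. Of these, 22.9% were called in high Wnt + TGFB, 32.3% in high Wnt + SB4, 52.1% in low Wnt + TGFB and 34.4% in low Wnt + SB4, each against the same dose without additive. Over all tested genes the shares were 7.25%, 21.5%, 26.0% and 11.2% in the same order. The shares over all genes also apply to the counts given above for single marker lists in these comparisons. These lists were drawn up for genes of this biology with results of these libraries known, so the shares are a description. The 22 genes called in high Wnt + TGFB were 14 without replicate 2 of that group, the 50 called in low Wnt + TGFB were 32 without replicate 2 of that group, and the 33 called in low Wnt + SB4 were 21 without replicate 2 of that group.

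The genes whose log2 CPM most resembled each of the 7 over the 14 libraries were found by Pearson correlation among 11575 genes. The libraries fall into 7 groups of 2, so each value largely reflects group means and is a description. EPHA1 (r = 0.989) and CORO2A (0.979) were among the genes nearest to KDR. FLT1 was nearest to S100A11 (0.987), KRT18 (0.975) and IGFBP6 (0.973). MMRN1 was nearest to MAP2 (0.977), TBL1X (0.974) and FHOD3 (0.972), and LMO2 to COL6A3 (0.971), CA12 (0.968) and SERPINF1 (0.965). None of these genes near KDR, FLT1, MMRN1 and LMO2 is on the endothelial, pericyte or blood lists. SOX17, named below for TAL1, is on the endothelial list.

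VEGFA and RGS5 had looser neighbours, BICD1 (r = 0.890) for VEGFA and NUP210 (0.944) for RGS5. TAL1, resting on 52 counts, was nearest to LINC00261 (0.927) and SOX17 (0.918), but Spearman's rho for these was only 0.619 and 0.677. By Spearman's rho the 3 nearest genes of TAL1 and of MMRN1 were all others than by Pearson's r, 2 of 3 were shared for VEGFA, and 1 of 3 was shared for KDR, FLT1, RGS5 and LMO2. Among the 7 themselves, KDR and FLT1 correlated at 0.716, FLT1 and LMO2 at 0.792, and FLT1 and MMRN1 at -0.796 over the 14 libraries. KDR and RGS5 correlated at 0.224 and LMO2 and TAL1 at -0.134, so the 7 genes did not share 1 pattern.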

How the data were processed

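Polyadenylated RNA was sequenced, and the raw gene counts of all 14 libraries were deposited by the authors as 1 table. The submitters' processing notes name HISAT2 2.2.0, SAMtools 1.10 and featureCounts 2.0.0 and the hg38 genome. Per the file headers, fragments were counted on exons by gene with reverse strandedness, and fragments that matched several genes or places were left out. The fit used edgeR 4.0.16 in R 4.3.3. It kept genes by filterByExpr, scaled libraries by TMM and tested 9 contrasts by quasi-likelihood F-tests with 1 mean per group (7 residual degrees of freedom) and Benjamini-Hochberg adjustment over 16149 genes. This procedure was tested on simulated data. DESeq2 1.42.0, other scalings, filters and sample sets were tried as alternatives.

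The members and the gene lists were chosen with earlier results of these data known. Named are the 7 genes, all VEGF family and multimerin or EMILIN genes, defining markers, up to 3 called genes a list with the smallest p (and a mean of 5 CPM or more in 1 of the groups), and genes among the 3 most like each member, of which some are not reported here. Some list genes given with their difference between doses were added after their values were seen. The set of RefSeq promoter windows used here held entries for 5 of the 7 genes. Same-numbered libraries did not deviate together (21 pairs of groups, correlations -0.116 to 0.206), so the numbers were not taken as pairs.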

Additional observations from a re-analysis of the deposited data

Results flagged for a closer look

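The results below were picked out because the effect of an additive differed between the 2 CHIR99021 doses by edgeR's test of the difference itself, at an adjusted p under 0.05. Each value is the log2 effect in high Wnt minus that in low Wnt, and the members among them are a description, since they were chosen on these data. For TGF-beta 1 the difference was -1.55 for KDR, -3.47 for FLT1 and -1.38 for VEGFA. Among other vascular and pericyte genes it was -4.30 for VWF, -0.80 for NRP1, 0.50 for NRP2, 1.56 for PDGFRB, -1.49 for CSPG4 and 1.21 for ACTA2. It was also 1.01 for TCF4, 0.89 for RGS16, -3.59 for ADM and 0.57 for P4HA1.

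For SB4 the difference was -2.81 for RGS5 and 1.11 for MMRN1. Among genes of the VEGF and angiopoietin systems it was -3.04 for PGF, 0.70 for NRP2, 0.79 for TEK and 1.88 for VWF. Among contractile and pericyte genes it was -1.51 for CSPG4, -2.36 for ACTA2 and -3.78 for TAGLN. It was -0.82 for RGS3, 1.27 for EGLN3 and 0.80 for PDGFRA.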

How the results depend on the processing

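No member's called difference changed sign in any alternative run: of 418 recomputed values called in the fit as reported, 388 stayed called and 30 did not, and 9 others became called. With a fold change of at least 1 on the log2 scale required, 31 listed genes other than the members were called in low Wnt + TGFB, 18 in low Wnt + SB4, 12 in high Wnt + TGFB, 20 in high Wnt + SB4 and 11 for the SB4 difference between doses. With DESeq2, 1 member was called for that difference, and KDR (high Wnt against low Wnt, -0.58) and TAL1 (low Wnt + TGFB, 2.39) were not called. Leaving out each library in turn, the members called ranged from 3 to 5 in low Wnt + TGFB and from 1 to 2 for the SB4 difference. The other listed genes called ranged from 32 to 44 in low Wnt + TGFB, 21 to 28 in low Wnt + SB4, 14 to 19 in high Wnt + TGFB and 9 to 19 for the TGF-beta 1 difference (22 with all libraries), lowest there without high Wnt + TGFB replicate 2, 14 without high Wnt replicate 2 and 13 without low Wnt + TGFB replicate 2. With 1 library left in a group, that library is assumed to vary like the others. The fit with the replicate block called 6 members in low Wnt + TGFB, 4 in low Wnt + SB4, 3 in high Wnt + TGFB and 4 in high Wnt + SB4. The numbers pair no libraries here (5 of 21 correlations over 0.1). Causes of these shifts were not tested. Depth limits TAL1 in all groups and LMO2 in low Wnt and low Wnt + SB4.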
